A study of Mus musculus with 4 samples.

Results

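The genes described here are 7 matrix proteases and 3 of their tissue inhibitors, measured by RNA sequencing in mouse astrocytes. They were taken by symbol from a table of 54532 genes as Mmp2, Mmp3, Mmp14, Mmp15, Mmp19, Adamts1, Adamts5, Timp1, Timp2 and Timp3. All 10 had a row, and all 10 were among the 16368 genes that passed the filter on low counts. The astrocytes received either an siRNA against Ptbp1 (2 libraries) or the comparison siRNA, labelled NC (2 libraries), an siRNA being a small RNA through which a cell destroys transcripts of matching sequence. Strain, age, dose and time are absent from the labels. So is any word on separate cultures, and the p-values therefore measure a spread between libraries that may be technical only. The comparison asks how astrocyte gene expression differs when Ptbp1, which encodes a splicing repressor, is lowered.

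Matrix metalloproteinases and ADAMTS proteases are zinc enzymes that cut collagens, basement membrane proteins and proteoglycans outside the cell. They are made as inactive precursors, and TIMPs block the active enzymes by inserting their amino-terminal end into the catalytic cleft. In the brain, astrocytes are a known source of both sides of this balance, which bears on the glial scar, the basement membrane around vessels and the proteoglycan nets around neurons.

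The short coding stretches behind that lock and key are shown because they mark which genes are proteases and which are inhibitors. They were read from GENCODE M21 transcripts, whose gene coordinates on GRCm38 match the deposited ones for all 10 genes. In the 7 proteases the capitals mark the codons of the zinc-binding histidines and of the catalytic glutamate, over 33 bases.
Mmp2, chr8:92839279-92839311, plus strand: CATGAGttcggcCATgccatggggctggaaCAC
Mmp14, chr14:54437627-54437659, plus strand: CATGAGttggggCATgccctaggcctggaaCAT
Mmp15, chr8:95368585-95368617, plus strand: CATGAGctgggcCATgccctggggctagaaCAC
Mmp19, chr10:128795673-128795705, plus strand: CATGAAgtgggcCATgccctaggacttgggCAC
Mmp3, chr9:7449775-7449807, plus strand: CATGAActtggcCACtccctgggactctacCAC
Adamts1, chr16:85799536-85799545 and chr16:85799191-85799213, minus strand: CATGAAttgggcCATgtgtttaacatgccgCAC
Adamts5, chr16:85887817-85887826 and chr16:85878015-85878037, minus strand: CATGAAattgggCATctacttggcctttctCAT
Set against the 33 bases of Mmp2, the membrane-type genes matched at 29 positions for Mmp15 and at 27 for Mmp14. The count was 24 for Mmp19, 23 for Mmp3, 20 for Adamts1 and 18 for Adamts5. In the MMP genes the stretch lay within a single exon, exon 8 in Mmp2 and exon 5 in the other 4, whereas in both ADAMTS genes an intron split it, between exons 3 and 4 in Adamts1 and between exons 2 and 3 in Adamts5. The stretch began at codon 403 in Mmp2, whose catalytic domain is known to carry fibronectin-like inserts, and between codons 213 and 255 in the other MMP genes.

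In the 3 inhibitors the capitals mark 2 cysteine codons at the start of the mature protein, over 27 bases. The first of these cysteines is the amino-terminal residue that contacts the zinc of the protease.
Timp1, chrX:20871111-20871137, plus strand: TGTagcTGTgccccaccccacccacag
Timp2, chr11:118354986-118355012, minus strand: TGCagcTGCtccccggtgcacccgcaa
Timp3, chr10:86300923-86300949, plus strand: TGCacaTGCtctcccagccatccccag
Against Timp1, Timp2 matched at 18 of the 27 positions and Timp3 at 16. Longer stretches show whether reads could be counted for the wrong gene. Of the stretches of 50 bases in their transcripts, Mmp2, Adamts1, Adamts5, Timp1 and Timp2 shared none with another gene of GENCODE M21 on either strand, and Mmp15 and Mmp14 shared 0.281% and 1.15% of theirs. Mmp3 shared 8.39%, chiefly with the related gene Mmp10, which had 4 and 8 counts in the Ptbp1 siRNA libraries and 5 and 0 in the NC siRNA libraries. The largest shares were 24.7% for Mmp19, chiefly with Tmem198b, and 21.4% for Timp3, chiefly with Syn3. Both of these other genes lie on the opposite strand and are described further on.

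Library totals lay between 14557844 and 16009248 counts, and these 10 genes took 0.270% and 0.252% of the counts with Ptbp1 siRNA and 0.274% and 0.258% with NC siRNA. Ptbp1 itself stood at 203 and 196 normalised counts (CPM, counts scaled to a common library size) with Ptbp1 siRNA, against 300.4 and 295 CPM with NC siRNA, which is 33.1% lower (log2 fold change -0.58, SE 0.063, edgeR adjusted p = 0.00127). Of the listed astrocyte markers, 11 of 12 passed the filter and none was at 0. Their summed level was 2486 and 2175 CPM with Ptbp1 siRNA against 2568 and 2388 CPM with NC siRNA. Of the 11 tested, 8 had a negative log2 fold change, and the median of the 11 was -0.07. The cultures also held transcripts of other cells. The summed level was 1082 and 1014 CPM with Ptbp1 siRNA against 1073 and 1092 CPM with NC siRNA for 12 microglia and macrophage markers, none of them at 0. Lyz2 alone gave 666 and 649 CPM of that sum with Ptbp1 siRNA and 663 and 672 CPM with NC siRNA, and 8 of the 11 tested markers had a negative log2 fold change, with a median of -0.19. For 10 choroid plexus markers, also with none at 0, the summed level was 123 and 129 CPM with Ptbp1 siRNA. It was 137 and 496 CPM with NC siRNA, the last value being that of NC siRNA 2. Of these 10 markers 7 passed the filter, with Ttr the highest per length. All 7 had a negative log2 fold change, with a median of -0.55. At an unadjusted edgeR p under 0.05 and lower with Ptbp1 siRNA there were 3 of the 7, against 2.29% of all tested genes, and none was called. The groups did not overlap in CPM for 1 of the 7, against 31.5% of all tested genes. In bulk RNA, fewer cells of a type and less RNA per cell cannot be told apart.

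Per length, the cultures held more transcript of the 3 inhibitors than of the 7 proteases, and the genes ranked in the same order in each of the 4 libraries. Levels between genes are compared as the deposited FPKM, which divides the count of a gene by its length and by the size of the library. The inhibitors summed to 640 and 588 FPKM with Ptbp1 siRNA and to 599 and 618 FPKM with NC siRNA. The proteases summed to 169 and 151 FPKM with Ptbp1 siRNA and to 176 and 165 FPKM with NC siRNA. The ratio of the sums was 3.79 and 3.88 with Ptbp1 siRNA and 3.39 and 3.75 with NC siRNA, so both Ptbp1 siRNA libraries lay above both NC siRNA libraries by a margin smaller than the gap between the NC siRNA libraries. This ratio is a sum over the chosen genes and was not tested.

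**Figure D1:**
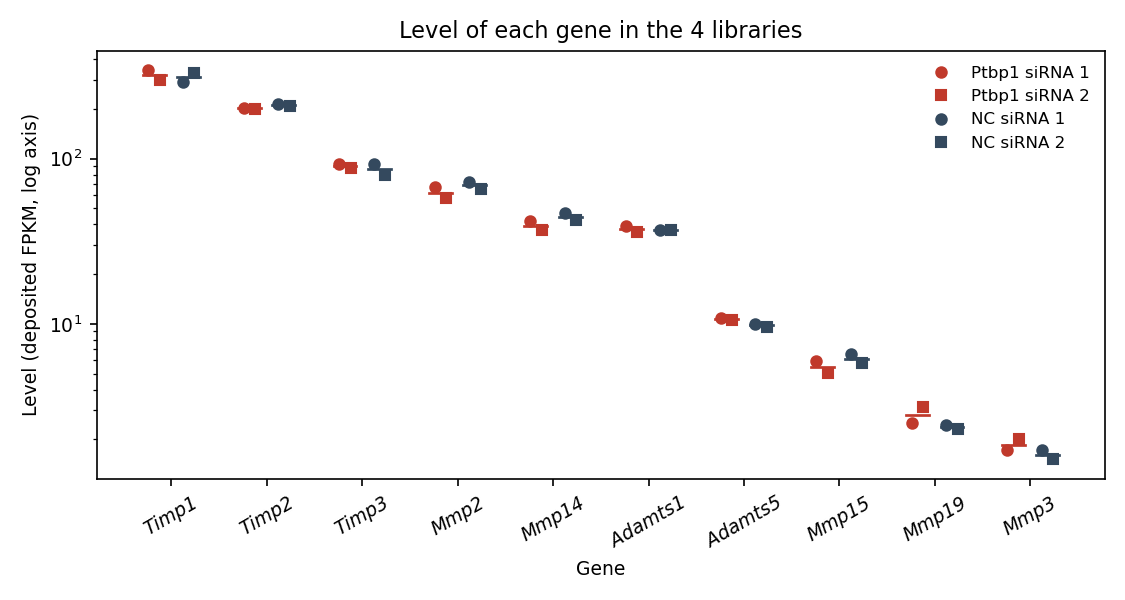
Deposited FPKM (log axis) of each gene in the 2 Ptbp1 siRNA libraries (red) and the 2 NC siRNA libraries (dark blue), genes ordered by their mean over the 4 libraries; points are libraries and short bars are group means of n = 2. Timp1, at 292 to 344 FPKM, stands highest and Mmp3, at 1.51 to 2.00 FPKM, lowest, and the groups lie close together for every gene.

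Over the 4 libraries the order of levels ran from Timp1 (316 ± 24.7 FPKM, SD, n = 4) and Timp2 (206 ± 5.47) through Timp3 (88.3 ± 6.36), Mmp2 (65.7 ± 6.02), Mmp14 (41.99 ± 3.99) and Adamts1 (37.2 ± 1.20). Below these stood Adamts5 (10.2 ± 0.531 FPKM), Mmp15 (5.83 ± 0.618), Mmp19 (2.59 ± 0.371) and Mmp3 (1.74 ± 0.202). The ranges of Mmp14 and Adamts1 overlapped, 36.9 to 46.6 FPKM against 36.1 to 38.9 FPKM, so their order is not beyond the spread, although Mmp14 was the higher of the pair within each library. Every other pair of neighbours was separated in all 4 libraries. The order depends on the length that a count is divided by, as the deposited length is that of all annotated exons together. Divided by the longest coding transcript in GENCODE M21, a choice made after seeing the data, Mmp14 averaged 77.3 FPKM and Mmp2 71.9 FPKM. The deposited length of Mmp14, 5960 bases, is 1.84 times its longest coding transcript. For Timp3 that ratio was 1.72, and its level became 152 FPKM, still the third.

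None of the 10 genes passed the test between the siRNAs, where 4 of 16368 genes did (0.0244%). Each of them had an adjusted p of 1.00 by edgeR's quasi-likelihood method, with the Benjamini-Hochberg adjustment run over all genes. At an unadjusted p under 0.05 there was 1 of the 10, Mmp14, where 3.98% of all tested genes lay under that level, 2.29% with a lower value in the Ptbp1 siRNA libraries. In the authors' deposited table none of the 10 (0) passed an adjusted p of 0.05, against 0.0148% of the genes with a value there, and Mmp14 was the 1 gene with a p under 0.05, against 0.56%. DESeq2 called 0 of the 10, with 1 at an unadjusted p under 0.05, and limma on log2(FPKM + 1) called 0, with 0 at that level. Over the 29505 genes of those fits, DESeq2 called 4, with 151 at that level. There limma called 0, with 1321 at that level, so it also kept 0 of the 4 genes called by edgeR. The median log2 fold change of Ptbp1 siRNA over NC siRNA was 0.04 over the 10 genes and 0.0004 over all tested genes. The values ran from -0.18 for Mmp14 to 0.25 for Mmp19, with 6 positive and 4 negative. The groups did not overlap in CPM for 4 of the 10 genes, and the share among all tested genes was 31.5%. Mmp14 and Timp2 were the 2 with lower values in both Ptbp1 siRNA libraries (15.9% of all tested genes), and Adamts5 and Mmp19 the 2 with higher values (15.6%). The difference between group means was larger than the gap within either group for 3 of the 10, Mmp14, Timp2 and Adamts5, against 20.6% of all tested genes. The number of all genes called was 34 to 75 when any 1 library was left out (34 without Ptbp1 siRNA 2, 61 without Ptbp1 siRNA 1, 61 without NC siRNA 1 and 75 without NC siRNA 2), and none of the 10 was called in any of those fits.

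**Figure D2:**
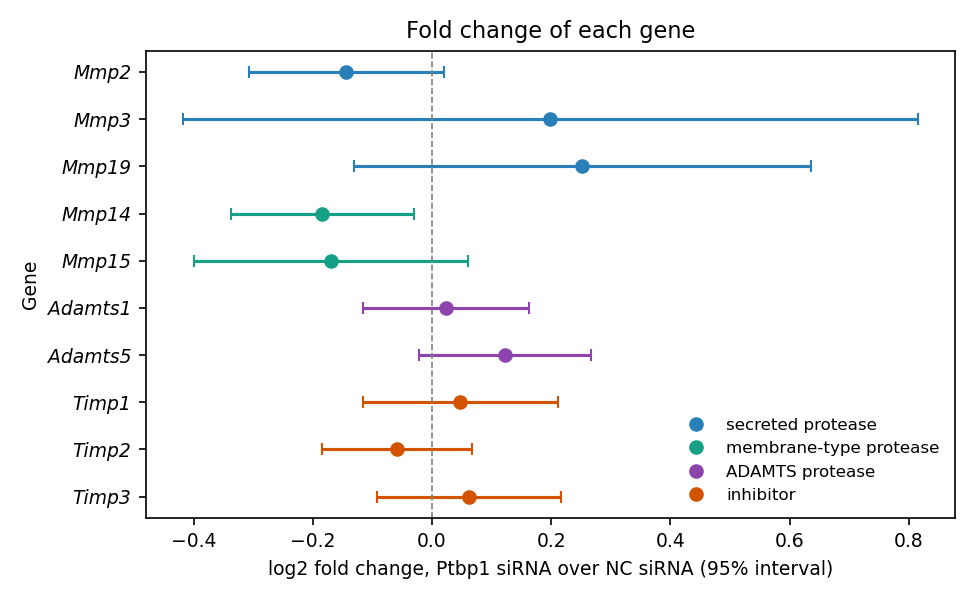
Log2 fold change of Ptbp1 siRNA over NC siRNA for each gene, with its 95% interval from the edgeR fit (2 libraries per group), coloured by role. Intervals of 9 genes cross the dashed line at no change, that of Mmp14 lies between -0.34 and -0.03, and the intervals of the low-count genes Mmp3 and Mmp19 are the widest.

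The secreted and membrane-type enzymes of the gelatinase axis, Mmp2 and Mmp14, were lower on average with Ptbp1 siRNA without passing the test. Mmp14 (ENSMUSG00000000957; GRCm38 chr14:54431612-54445364, plus strand, protein coding) encodes a membrane-anchored collagenase that activates the MMP2 precursor at the cell surface. Its counts were 3631 and 3292 in the Ptbp1 siRNA libraries and 4473 and 3838 in the NC siRNA libraries, or 250.1 and 221 CPM against 279 and 256 CPM. Both Ptbp1 siRNA libraries lay below both NC siRNA libraries, though Ptbp1 siRNA 1 came close to NC siRNA 2. On the log2 scale the difference was -0.18 (SE 0.073, 95% interval -0.34 to -0.03), with limits that lie 20.9% and 2.07% below the NC siRNA level. The unadjusted p was 0.0220 and the edgeR adjusted p 1.00. The authors' deposited table gave a log2 fold change of -0.18 with a p of 0.0282 and an adjusted p of 1.00. Leaving out a library moved the log2 fold change between -0.28, without Ptbp1 siRNA 1, and -0.10, without Ptbp1 siRNA 2, and the smallest adjusted p, 0.0956, came without NC siRNA 2.

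Mmp2 (ENSMUSG00000031740; chr8:92827291-92853420, plus strand) encodes gelatinase A, which degrades denatured collagen and type IV collagen. It stood at 227 and 196 CPM with Ptbp1 siRNA against 245 and 222 CPM with NC siRNA. The groups overlapped, since Ptbp1 siRNA 1 lay above NC siRNA 2. Its log2 fold change was -0.14 (SE 0.077, 95% interval -0.31 to 0.02, edgeR adjusted p = 1.00), a fold between 0.808 and 1.01. Without Ptbp1 siRNA 2 it was -0.04 and without Ptbp1 siRNA 1 it was -0.26. Mmp2 kept a nearly fixed proportion to Mmp14 in the separate libraries. The FPKM ratios were 1.61 and 1.57 with Ptbp1 siRNA and 1.55 and 1.54 with NC siRNA. Their size depends on the length taken for Mmp14. Divided by the longest coding transcript, Mmp2 lay below Mmp14 in each library. It stood at 73.5 and 63.2 FPKM against 76.8 and 67.9 with Ptbp1 siRNA. With NC siRNA it stood at 79.2 and 71.9 FPKM against 85.7 and 78.7.

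Mmp15 (ENSMUSG00000031790; chr8:95352268-95375080, plus strand) encodes another membrane-type enzyme, on the same chromosome as Mmp2. Its counts were 466 and 409 with Ptbp1 siRNA and 571 and 469 with NC siRNA, and its CPM values were 32.1 and 27.4 against 35.6 and 31.3. Ptbp1 siRNA 1 and NC siRNA 2 were nearly level, and the groups overlapped. Fitted over all genes, it had a log2 fold change of -0.17 (SE 0.109, 95% interval -0.40 to 0.06, edgeR adjusted p = 1.00), and it ranged from -0.29 to -0.06 with a library left out, without Ptbp1 siRNA 1 and without Ptbp1 siRNA 2.

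Mmp2, Mmp14, Mmp15 and Timp2 shared 1 order at the extremes, with NC siRNA 1 the highest library and Ptbp1 siRNA 2 the lowest. That held for 4 of these 10 genes and for 10.3% of all tested genes. The order was picked from the values of these same genes, so the difference between the shares is not a test. Col1a1 and Col1a2, which encode the chains of type I collagen, a substrate of these enzymes, had the same extremes. On the log2 scale, Ptbp1 siRNA 2 lay 0.18 below the mean of the 4 libraries for Mmp2 (deviation -0.18), and the deviations were -0.18 for Mmp14, -0.20 for Mmp15, -0.34 for Col1a1 and -0.24 for Col1a2. In NC siRNA 1 the deviations were 0.14 for Mmp2, 0.15 for Mmp14, 0.18 for Mmp15, 0.31 for Col1a1 and 0.18 for Col1a2. Timp2 deviated far less, by -0.036 in Ptbp1 siRNA 2, -0.023 in Ptbp1 siRNA 1 and 0.050 in NC siRNA 1. The summed fibroblast markers had the same extremes, and so did the summed astrocyte and endothelial markers. The astrocyte sum was 2486 and 2175 CPM with Ptbp1 siRNA against 2568 and 2388 CPM with NC siRNA. The sums of the other marker lists did not share both extremes. Among the fibroblast markers, Pdgfra, Fap and Twist1 were lowest in Ptbp1 siRNA 1. All 10 fibroblast markers listed passed the filter and had a negative log2 fold change (median -0.19), none was at 0, and their summed level was 2506 and 2095 CPM with Ptbp1 siRNA against 2813 and 2538 CPM with NC siRNA. Col1a1, Col1a2 and Col3a1 make up most of that sum, and are also among the substrates described further on. Their part in the protease values was not tested.

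**Figure D3:**
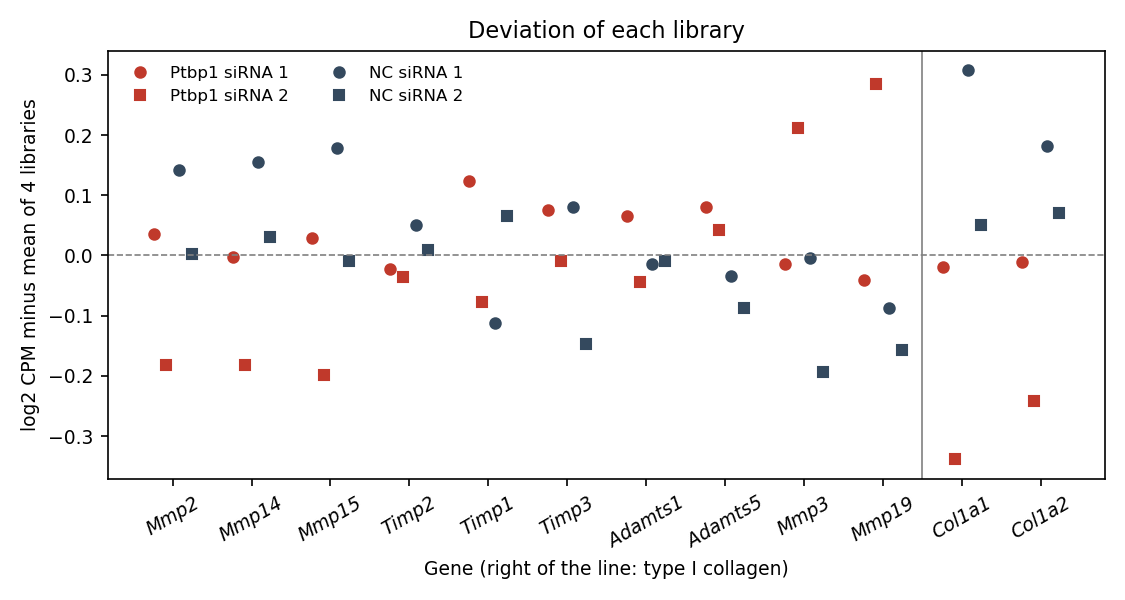
Log2 CPM of each library minus the mean of the 4 libraries, for the 10 genes and, right of the line, Col1a1 and Col1a2; red marks Ptbp1 siRNA and dark blue NC siRNA, circles replicate 1 and squares replicate 2. Ptbp1 siRNA 2 lies lowest for Mmp2, Mmp14, Mmp15 and both collagen genes, and by a small margin for Timp2 and Adamts1, and it lies highest for Mmp3 and Mmp19.

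The remaining secreted enzymes were close to the limit of what these counts can compare. Mmp3 (ENSMUSG00000043613; chr9:7445822-7455975, plus strand) encodes stromelysin, an enzyme that degrades proteoglycans and activates other MMP precursors. It had 45 and 54 counts with Ptbp1 siRNA and 50 and 41 with NC siRNA, and the groups overlapped. The fitted log2 fold change was 0.20 (SE 0.29, edgeR adjusted p = 1.00). It was 0.31 without Ptbp1 siRNA 1, 0.082 without Ptbp1 siRNA 2, 0.30 without NC siRNA 1 and 0.11 without NC siRNA 2. Its 95% interval reaches from a fold of 0.748 to one of 1.76, and any fold within those limits is compatible with these counts.

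Mmp19 (ENSMUSG00000025355; chr10:128790910-128800824, plus strand) encodes a secreted enzyme active on basement membrane proteins. It had 129 and 166 counts with Ptbp1 siRNA and 138 and 123 with NC siRNA, or 8.89 and 11.1 CPM against 8.61 and 8.20 CPM. Both Ptbp1 siRNA libraries were the higher ones, but Ptbp1 siRNA 1 exceeded NC siRNA 1 by less than the Ptbp1 siRNA libraries differed from each other. Its fitted log2 fold change was 0.25 (SE 0.18, 95% interval -0.13 to 0.64, edgeR adjusted p = 1.00), and it was 0.081 without Ptbp1 siRNA 2 and 0.40 without Ptbp1 siRNA 1. Its counts are uncertain. Of its exon bases 22.3% overlap Tmem198b on the opposite strand, which had 350.0 and 349 counts with Ptbp1 siRNA and 407 and 343 with NC siRNA, and the sources used here do not say if reads were assigned by strand. Another 212 of its 3533 exon bases overlap the antisense gene Gm47093, with 1 to 6 counts per library.

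The ADAMTS genes lie near each other on chromosome 16, on the minus strand, and both encode enzymes that cut the proteoglycans aggrecan, versican and brevican. Adamts1 (ENSMUSG00000022893; chr16:85793827-85803113) was at 207 and 192 CPM with Ptbp1 siRNA and at 196 and 197 CPM with NC siRNA. The NC siRNA libraries lay between the Ptbp1 siRNA libraries. Its log2 fold change was 0.02 (SE 0.066, 95% interval -0.12 to 0.16, edgeR adjusted p = 1.00) and took the opposite sign, -0.032, without Ptbp1 siRNA 1.

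Adamts5 (ENSMUSG00000022894; chr16:85856173-85901828) had, of the 10 genes, the largest difference between groups relative to the gaps within them. Its counts were 1700 in each Ptbp1 siRNA library, and 1734 and 1563 in the NC siRNA libraries, which gave 117 and 114 CPM against 108 and 104 CPM on the scaled library sizes. Both Ptbp1 siRNA libraries were higher, by 9.38 CPM on average, while the libraries within a group differed by 3.02 CPM with Ptbp1 siRNA and 3.93 CPM with NC siRNA. The log2 fold change was 0.12 (SE 0.068, 95% interval -0.02 to 0.27), the unadjusted p was 0.0926 and the edgeR adjusted p 1.00. Leaving out a library kept it between 0.10 and 0.15.

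The inhibitors had the highest levels of the 10 genes per length. Timp1 (ENSMUSG00000001131; chrX:20870166-20874735, plus strand) encodes a secreted inhibitor whose transcript is known to be induced in reactive astrocytes. It stood at 307 and 267 CPM with Ptbp1 siRNA and at 260.3 and 295 CPM with NC siRNA. The libraries alternated, with the highest in the Ptbp1 siRNA group and the lowest in the NC siRNA group, and the gaps within the groups, 39.7 CPM with Ptbp1 siRNA and 34.3 CPM with NC siRNA, exceeded the 9.31 CPM between their means. The log2 fold change was 0.05 (SE 0.077, 95% interval -0.12 to 0.21, edgeR adjusted p = 1.00), and it was -0.056 without Ptbp1 siRNA 1 and -0.041 without NC siRNA 1. Timp1 lies inside the synapsin gene Syn1 on the opposite strand and shares no exon base with it.

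Timp2 (ENSMUSG00000017466; chr11:118301069-118355740, minus strand) encodes the inhibitor that also serves as the bridge between MMP14 and the MMP2 precursor. It stood at 795 and 788 CPM with Ptbp1 siRNA against 836 and 813 CPM with NC siRNA, and both Ptbp1 siRNA libraries were the lower ones. With a log2 fold change of -0.06 (SE 0.059, 95% interval -0.18 to 0.07, edgeR adjusted p = 1.00), it left folds below 0.880 or above 1.05 outside the interval. Timp2 stood to Mmp14 in FPKM as 4.86 and 5.46 to 1 with Ptbp1 siRNA and as 4.59 and 4.86 to 1 with NC siRNA. The lower Ptbp1 siRNA library and the higher NC siRNA library were almost equal in that ratio. Its size also depends on the length taken for Mmp14. The gene Cep295nl lies inside the span of Timp2 and shares no exon base with it.

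Timp3 (ENSMUSG00000020044; chr10:86300372-86349506, plus strand) encodes the inhibitor that binds to the matrix itself and that blocks ADAMTS enzymes. It stood at 761 and 717 CPM with Ptbp1 siRNA and at 763 and 651 CPM with NC siRNA. NC siRNA 2 was low and the other 3 libraries were closer together, so the spread within the NC siRNA group, 112 CPM, exceeded the difference of 31.3 CPM between the groups. The log2 fold change was 0.06 (SE 0.073, 95% interval -0.09 to 0.22, edgeR adjusted p = 1.00), and it was 0.18 without NC siRNA 1 and -0.047 without NC siRNA 2. NC siRNA 2 is also the library in which choroid plexus markers stood high, as given above, and the part of that difference in the Timp3 value was not tested. Timp3 lies inside Syn3 on the opposite strand. Of its exon bases 21.3% overlap those of Syn3, which had only 30 and 25 counts with Ptbp1 siRNA and 38 and 14 with NC siRNA, against 9768 to 12235 for Timp3.

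The intervals give the folds that are compatible with these libraries. For the 7 genes with a mean of at least 100 CPM, which are Mmp2, Mmp14, both ADAMTS genes and the 3 inhibitors, every 95% interval lay between a fold of 0.791 and 1.20. For Mmp3, Mmp15 and Mmp19 the limits reached 0.748 and 1.76. These intervals rest on 2 libraries per group and on a spread estimated with the help of all other genes.

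The wider family and its partners were read from lists of 84 further genes, of which 70 passed the filter. None was called by edgeR, DESeq2 or limma on log2(FPKM + 1). By edgeR 5 of the 70 had an unadjusted p under 0.05, 1 higher and 4 lower with Ptbp1 siRNA, where all tested genes had 3.98% under that level and 2.29% under it and lower. DESeq2 and limma, which tested 82 of the 84, had 1 and 0 at that level. Over all 29505 genes of those fits the numbers were 151 and 1321, and limma called 0 of them. The groups did not overlap in CPM for 15 of the 70, against 31.5% of all tested genes. Among the other MMP genes, 10 of 18 passed the filter and Mmp7 had no count. The highest per length were Mmp11 (4.80 ± 0.414 FPKM, SD, n = 4), Mmp17 (4.27 ± 0.500) and Mmp28 (2.33 ± 0.122), all below Mmp15. The smallest p values were those of Mmp12, the macrophage elastase, with 36 and 21 counts with Ptbp1 siRNA against 13 and 21 with NC siRNA (a log2 fold change of 0.81 with SE 0.45, edgeR adjusted p = 1.00), and of Mmp23, with 51 and 67 counts against 61 and 105 (log2 fold change -0.43, SE 0.29). The median log2 fold change of the 10 was 0.08.

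Of the other ADAMTS genes, 14 of 17 passed the filter, and Adamts19 had no count. Adamts14, a procollagen-processing enzyme, was the highest at 6.89 ± 0.0604 FPKM (SD, n = 4), followed by Adamts10 at 3.53 ± 0.201 and Adamts6 at 3.45 ± 0.256, all below Adamts5. Adamts8 was at 6.20 and 5.03 CPM with Ptbp1 siRNA against 7.30 and 8.20 CPM with NC siRNA (log2 fold change -0.46, SE 0.21, unadjusted p = 0.0411, edgeR adjusted p = 1.00). Adamts20 had a log2 fold change of -0.29 (SE 0.24). The median of the list was -0.03. The ADAM genes, whose products shed proteins from the cell surface, all passed the filter (8 of 8), with Adam9 at 39.3 ± 1.47 FPKM, Adam10 at 23.9 ± 1.80 and Adam15 at 11.1 ± 0.594. Their median log2 fold change was -0.06, and the smallest p values were those of Adam19 (-0.12, SE 0.089) and Adam10 (-0.08, SE 0.080).

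Other inhibitors included Cst3, the cystatin that blocks cysteine proteases, at 387 ± 19.2 FPKM, and Serpinf1 at 36.7 ± 4.16 FPKM (SD, n = 4). Timp4, the remaining TIMP, was low, with 56 and 49 counts with Ptbp1 siRNA and 70 and 77 with NC siRNA (a log2 fold change of -0.41 with SE 0.26, edgeR adjusted p = 1.00). A2m, a broad protease trap, was at 35.1 and 28.3 CPM with Ptbp1 siRNA against 37.7 and 39.8 CPM with NC siRNA (log2 fold change -0.29, SE 0.11, unadjusted p = 0.0151, edgeR adjusted p = 1.00). Of this list 7 of 8 passed the filter, and their median was -0.05.

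Activators and clearance factors had a median log2 fold change of 0.002 over 12 of 13 genes. The thrombospondin gene Thbs1 (233 ± 10.7 FPKM), the MMP inducer Bsg (221 ± 9.48) and the hyaluronan receptor Cd44 (69.4 ± 1.95) were the highest (SD, n = 4). Pcsk6, a proprotein convertase, was at 81.7 and 67.3 CPM with Ptbp1 siRNA against 67.5 and 62.8 CPM with NC siRNA (log2 fold change 0.19, SE 0.089, unadjusted p = 0.0460, edgeR adjusted p = 1.00), and Thbs2 had -0.16 (SE 0.12).

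Matrix substrates had the lowest median of these 6 lists, -0.12 over 19 of 20 genes, with 15 negative values. Col1a1 was at 578 and 463 CPM with Ptbp1 siRNA against 725 and 606 CPM with NC siRNA (a log2 fold change of -0.35 with SE 0.094, edgeR adjusted p = 1.00), and Col1a2 at 614 and 523 CPM against 701 and 649 CPM (-0.25, SE 0.075). Their unadjusted edgeR p values were 0.00160 for Col1a1 and 0.00412 for Col1a2. The authors' deposited p values were 0.0808 for Col1a1 and 0.00170 for Col1a2. Sparc, Fn1 and Col3a1, the highest per length, had log2 fold changes of -0.06 (SE 0.075), -0.06 (SE 0.11) and -0.14 (SE 0.076). With no filter on low counts both were called, at an edgeR adjusted p of 8.64e-07 for Col1a1 and 0.00616 for Col1a2, and 50 of 29505 genes were called in that fit. Without Ptbp1 siRNA 1, 4 of the 71 listed genes tested were called, against 61 of 17204 genes in all. Without NC siRNA 2 the count was 5 of 71, against 75 of 17192 in all, and each of the listed genes called was lower with Ptbp1 siRNA. Both of these fits held Col1a1, Col1a2 and Col4a2, and Thbs2 was the fourth in the first, Lrp1 and Nid1 the others in the second. No library left out made one of the 10 genes, or a protease or inhibitor of these lists, pass.

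**Figure D4:**
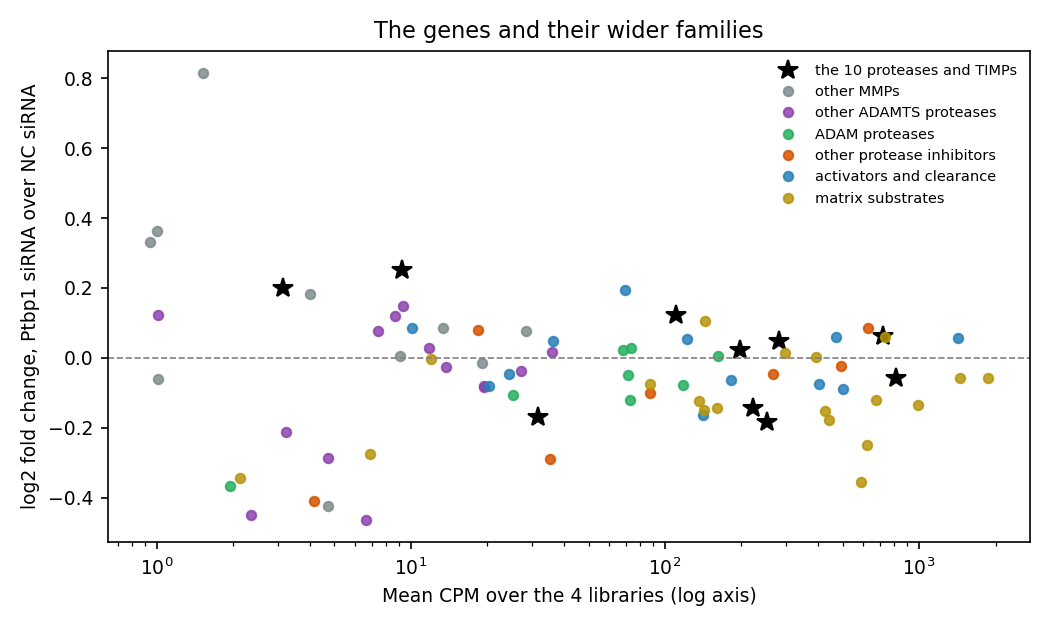
Log2 fold change of Ptbp1 siRNA over NC siRNA against the mean CPM over the 4 libraries (log axis) for the 10 genes (stars) and the 70 tested genes of the related lists (circles). The 10 genes lie between -0.18 and 0.25, and Mmp12, a gene of low counts, is the farthest from the dashed line at no change.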

How the data were processed

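RNA libraries of mouse astrocytes were built with a SMARTer kit per the labels' protocols. Per the submitters' processing notes the builds are GRCm38 and mm10. No aligner, counter or strand setting is named in the sources used here. The authors' table, as deposited, holds whole-number counts per gene, FPKM, group means as a signal of scaled counts, and a log2 fold change with p-values.

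The main test was the quasi-likelihood test of edgeR 4.0.16 under R 4.3.3 (two-sided, TMM normalization, filterByExpr, group as the only term, Benjamini-Hochberg over all genes, call under 0.05). DESeq2 1.42.0 and limma 3.58.1 on log2(FPKM + 1) were alternatives. Standard errors and 95% intervals derive from the quasi-F statistic. Residual degrees of freedom were 2, with 14.0 added from the prior. Levels are CPM on TMM-scaled libraries (factors 0.997 to 1.003). Molecular identifiers are not mentioned, and PCR copies may be among the counts. Library pairs differed beyond counting error (chi-square per degree of freedom 3.19 to 6.63). Overlaps, 50-base stretches and coding sequence come from GENCODE M21, read with Biopython 1.88. The edgeR, DESeq2 and limma steps were tested on simulated counts. The 10 genes, the related lists and the marker lists were chosen with earlier results of these data known. Of each related list, the 3 genes highest in FPKM and the 2 with the smallest p are named, except for 1 gene that is not reported here, and Mmp10, Mmp7, Adamts19, Lyz2, Col4a2, Lrp1, Nid1 and genes overlapping the 10 were added after their values were seen.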

Additional observations from a re-analysis of the deposited data

How the results depend on the processing

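The 10 genes gave 120 fold changes under 12 alternatives, of which none passed an adjusted p of 0.05 (smallest 0.0956, Mmp14 without NC siRNA 2) and 4 changed sign, all with a library left out. With each library left out, the log2 fold change ran from -0.032 to 0.078 for Adamts1, from -0.056 to 0.15 for Timp1 and from -0.047 to 0.18 for Timp3. Scaling by RLE or by library size, no filter, a mean of at least 1 CPM and both FPKM pseudocounts (1 and 0.1) changed no sign. The number of all genes called moved from 4 to 0 with limma on log2(FPKM + 1) (1321 at an unadjusted p under 0.05), to 50 with no filter and to between 34 and 75 with a library left out, where an arm of 1 library borrows the spread of the other; the cause was not tested. The related genes called numbered 2 with no filter and 0 to 5 with a library left out.

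The replicate numbers are not stated to pair the libraries, and the differences between replicates correlated at 0.11 between the groups over 15139 genes. Libraries with the same replicate number nevertheless differed least, at a chi-square per degree of freedom of 3.19 for replicate 1 and 4.11 for replicate 2. Libraries of the same siRNA gave 5.03 with Ptbp1 siRNA and 5.70 with NC siRNA, and the remaining pairs 4.62 and 6.63. A shared culture or batch behind the numbers was not tested, and the main fit has no term for it. With the replicate number as a block, 36 of all genes and 2 related genes (Col1a1, adjusted p = 3.66e-06, and Col1a2, adjusted p = 0.00446) were called, and none of the 10. Depth limits Mmp3 and Mmp19 most, at 41 to 166 counts per library.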
